A study of Rattus norvegicus with 4 samples.

Results

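Chemokines are small secreted or membrane-anchored proteins that guide leukocytes along gradients by binding G protein-coupled receptors on their surface. The spacing of conserved cysteines near their amino end divides them into the CC, CXC, CX3C and C classes, and receptors are named after the class they bind. In the heart, the CC ligands of the Ccl2 type are known for drawing monocytes out of the blood, CXC ligands of the Cxcl1 type for drawing neutrophils, and Cxcl12 and the lymphoid ligands for placing cells in resting tissue. The genes described here are the chemokines and chemokine receptors of the left ventricle of rats, taken as every gene symbol that begins with Ccl, Ccr, Cxcl, Cxcr, Xcl or Xcr followed by a digit, or with Cx3c. The rule found 52 genes, 34 ligands and 18 receptors, among 17185 loci with a gene symbol and 22861 loci in all. No member was split over several loci.

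All animals were male Sprague Dawley rats on 0.4% Dyets chow that underwent the excision form of 5/6 nephrectomy (5/6Nx), the surgical removal of most kidney mass, at 10 weeks of age. They then received a locked nucleic acid oligonucleotide, a short modified strand that binds a complementary RNA tightly, into the jugular vein at 1 mg/kg in 3 daily doses in week 1 and again in week 4, and tissue was collected in week 7. In the anti-miR-21 group the oligonucleotide was directed against miR-21-5p, and in the anti-scr group it had a scrambled sequence. Each group had 2 libraries, each made from a pool of 2 to 3 rats, and neither unoperated nor uninjected rats are among the samples. Depth was 47826514 to 54952098 reads per library, of which 94.0% to 94.4% mapped. The deposited expression table gives 1 FPKM value (fragments scaled to transcript length and to the mapped fragments of the library) per locus and group, so no spread between the pools can be shown for any value. The only guide to spread is the p-value and q-value (the p-value adjusted over all tested loci) of the authors' test. How that test estimated the spread between pools is not given in the sources used here. A gene was called, and is said to have risen or fallen, where that q lay under 0.05. A log2 fold is positive where the FPKM was higher with anti-miR-21. Cardiomyocyte markers had the highest levels among the marker lists, with Tnnt2, a troponin of the contractile filament, at 14612 FPKM under anti-scr and 11397 under anti-miR-21.

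The target miRNA is shown first because the groups differ by design in whether the injected oligonucleotide was directed against it. The mature rat miRNA, from RefSeq on build GRCr8 (chr10:71902653-71902674, minus strand), is printed 5′ to 3′ with its seed, bases 2 to 8, in capitals.
rno-miR-21-5p: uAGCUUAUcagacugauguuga

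Promoter windows of 3 members follow, each 250 bases before to 50 bases after the annotated start, from RefSeq on GRCr8. They are those of the called gene Cxcl13, of Ccl7, which had the lowest p among uncalled members with a window in the table, and of Xcl1, the member with the lowest log2 fold. Capitals mark matches to 3 motifs searched on both strands: the TATA box TATAAA, the AP-1 motif TGANTCA and the kappaB consensus. No match to one motif overlapped a match to another in the members.
Cxcl13 (chr14:13917871-13918170, minus strand): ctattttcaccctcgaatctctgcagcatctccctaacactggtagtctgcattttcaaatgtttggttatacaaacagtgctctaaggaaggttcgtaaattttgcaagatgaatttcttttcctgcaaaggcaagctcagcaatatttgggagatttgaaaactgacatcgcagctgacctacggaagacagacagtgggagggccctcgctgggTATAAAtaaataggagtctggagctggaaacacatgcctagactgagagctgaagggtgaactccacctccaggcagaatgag
Ccl7 (chr10:67513845-67514144, plus strand): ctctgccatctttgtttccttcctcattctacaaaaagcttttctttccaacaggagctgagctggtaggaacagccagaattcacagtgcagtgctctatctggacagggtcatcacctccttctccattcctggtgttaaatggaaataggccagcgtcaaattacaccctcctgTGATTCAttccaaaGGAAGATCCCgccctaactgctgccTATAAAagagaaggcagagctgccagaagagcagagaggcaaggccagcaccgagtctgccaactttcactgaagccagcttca
Xcl1 (chr13:79785391-79785690, minus strand): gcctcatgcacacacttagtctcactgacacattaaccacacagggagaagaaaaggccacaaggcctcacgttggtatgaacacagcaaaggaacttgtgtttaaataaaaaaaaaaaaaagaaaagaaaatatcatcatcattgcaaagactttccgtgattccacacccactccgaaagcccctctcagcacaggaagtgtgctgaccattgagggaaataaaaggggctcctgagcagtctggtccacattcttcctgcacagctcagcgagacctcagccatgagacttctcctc

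The Cxcl13 window holds a TATA box at -33 from the start. The Ccl7 window holds an AP-1 match at -73, a kappaB match, read on the strand opposite to the gene, at -59 and a TATA box at -34. None of the 3 motifs is written in the Xcl1 window, which says only that these letters are absent from it. Windows were found for 40 of the 52 members. The letters TATAAA stood, at any position and on either strand, in 12 of them (30%), against 14.2% of all 33469 windows of this length. The kappaB consensus stood in 9 (22.5%, against 7.51% of all) and the AP-1 motif in 7 (17.5%, against 7.33%). A match is a description of the sequence and shows no binding.

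Whether inhibition of miR-21-5p was accompanied by a change of chemokine transcripts in the left ventricle after 5/6Nx is the question the comparison addresses. The B cell attractant Cxcl13 rose 2.45-fold, from 3.39 to 8.30 FPKM, and was the 1 member called. Ligands that draw monocytes, Ccl2 and Ccl7, and the receptor gene Ccr1 were higher in value with anti-miR-21, while the lymphocyte product Xcl1 was lower, and none of these 4 was called. The abundant tissue ligand Cxcl12 and its scavenger receptor Cxcr7 had log2 folds of 0.15 and -0.01 and were not called. In bulk tissue, a change in the number of cells that make a transcript and a change in the transcript per cell cannot be told apart.

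Of the 52 members, 26 were tested by the authors, and these are the 26 with a mean FPKM of at least 1. The other 26 had a mean FPKM of 0.880 or less. Among the 26 tested members, 1 was called higher in the authors' deposited table, where 0.186% of all 12876 tested loci were called higher, and 0 were called lower, where 0.629% of all were. At an unadjusted p under 0.05 in the authors' deposited table, 6 of the 26 were higher (23.1%) against 3.18% of all tested loci, and 1 was lower (3.85%) against 6.11%. By value alone, 16 tested members were higher and 10 lower, where 53.1% of all tested loci with a fold were higher. Over the 40 members with a mean FPKM of at least 0.1 and a value above 0 in both groups, 24 were higher and 16 lower, and the median log2 fold was 0.27. Over all 16500 loci with the same minimum, 53.7% were higher in value and the median log2 fold was 0.03. The 10 members with a mean FPKM under 0.1 comprise 4 listed at 0 in both groups and 6 others, and 2 members above that minimum were listed at 0 in 1 group.

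**Figure D1:**
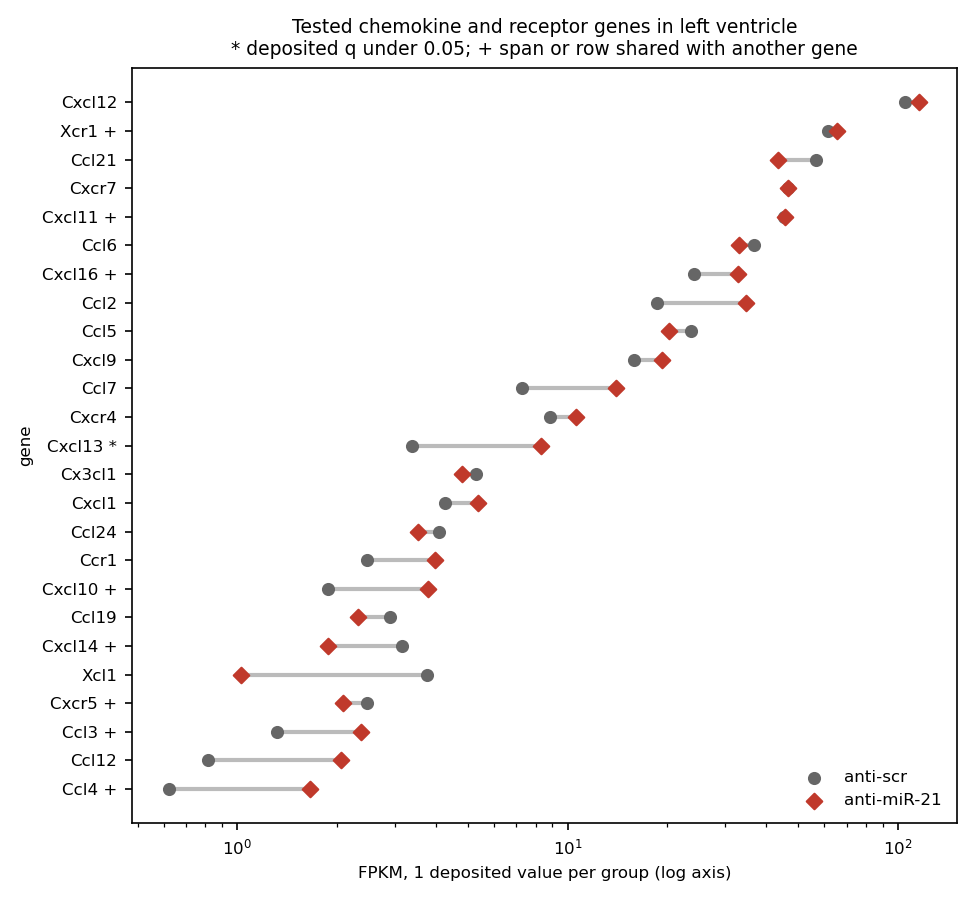
FPKM of 25 tested chemokine and receptor genes on a log axis, 1 deposited value per group (circles anti-scr, diamonds anti-miR-21), ordered by mean level, with no error bars because the table holds no value per library. The widest gaps are those of Xcl1, toward anti-scr, and of Ccl4, Ccl12 and Cxcl13, toward anti-miR-21, and only Cxcl13 (asterisk) was called.

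Of 9 inflammatory CC ligands, 7 were higher in value, and their median log2 fold was 0.89. None was called. Of 7 tested members, 2 were higher at an unadjusted p under 0.05 in the authors' deposited table, against 3.18% of all tested loci. At that threshold 0 were lower, against 6.11%. Ccl2 (monocyte chemoattractant protein 1; rn5 chromosome 10, 69047090 to 69048889) stood at 18.7 FPKM under anti-scr and 34.7 under anti-miR-21, a log2 fold of 0.89. Its q of 0.0550 in the authors' deposited table lay just above the threshold. Ccl7, a further monocyte attractant whose gene lies next to Ccl2 (69058108 to 69059959), stood at 7.26 and 14.1 FPKM, a log2 fold of 0.95 (p = 0.00315, q = 0.166 per the authors' deposited table). Ccl12, known in the mouse as an attractant of monocytes, stood at 0.814 and 2.07 FPKM (log2 fold 1.35), and with a p of 0.127 in the authors' deposited table this larger fold of a scarcer transcript was not called.

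Ccl3 and Ccl4, macrophage inflammatory proteins, were also higher in value without a call. Ccl3 stood at 1.32 and 2.36 FPKM (log2 fold 0.84) and Ccl4 at 0.622 and 1.66 FPKM (1.41). Both are listed with the same span, so reads may have been divided between them by the authors' model. Ccl1 (0.350 and 0.743 FPKM) and Ccl9 (0.467 and 0.790 FPKM) were not tested. The most abundant ligands of this role went slightly the other way. Ccl6, a CC ligand known from rodents, stood at 36.7 and 33.2 FPKM (log2 fold -0.15), and Ccl5, which draws T cells and monocytes, stood at 23.7 and 20.3 FPKM (-0.22), with q of 0.974 and 0.892 in the authors' deposited table.

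The members higher at an unadjusted p under 0.05 include Ccr1, a receptor of Ccl3 and Ccl5 on monocytes, macrophages and T cells. Ccr1 stood at 2.47 and 3.97 FPKM in the same order of groups (log2 fold 0.68; p = 0.0320, q = 0.467 per the authors' deposited table). Among untested CC receptors, Ccr10 (0.211 and 0.352 FPKM) and Ccr7 (0.199 and 0.164 FPKM) had low values, Ccr1l1 and Ccr6 were listed at 0 with anti-scr, Ccr3 was listed at 0 with anti-miR-21, and Ccr4 and Ccr9 were listed at 0 in both groups. The listed span of Ccr10 is also that of Cntnap1 (4.39 and 4.05 FPKM). Ccr2, the main receptor of Ccl2, was not analysed here.

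Markers of the cells that the monocyte attractants draw, or that make them, were measured beside them. Of 9 macrophage markers, 7 were higher and 2 lower in value (median log2 fold 0.17), and 0 were called. At an unadjusted p under 0.05 in the authors' deposited table, 2 of the 9 were higher, against 3.18% of all tested loci, namely the lysozyme gene Lyz2 (165 and 251 FPKM, log2 fold 0.60) and the mannose receptor gene Mrc1 (16.8 and 24.3 FPKM, 0.53). Summed over the list, the level was 337 FPKM under anti-scr and 435 under anti-miR-21, and no marker stood at 0. The 4 monocyte markers summed to 61.9 and 69.3 FPKM, with 3 higher in value and 0 past an unadjusted p of 0.05 in the authors' deposited table. The highest levels were those of Ly6c (45.0 and 49.3 FPKM) and Plac8 (7.67 and 8.47 FPKM). The part of these cells in the values of Ccl2, Ccl7 and Ccr1 was not tested.

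**Figure D2:**
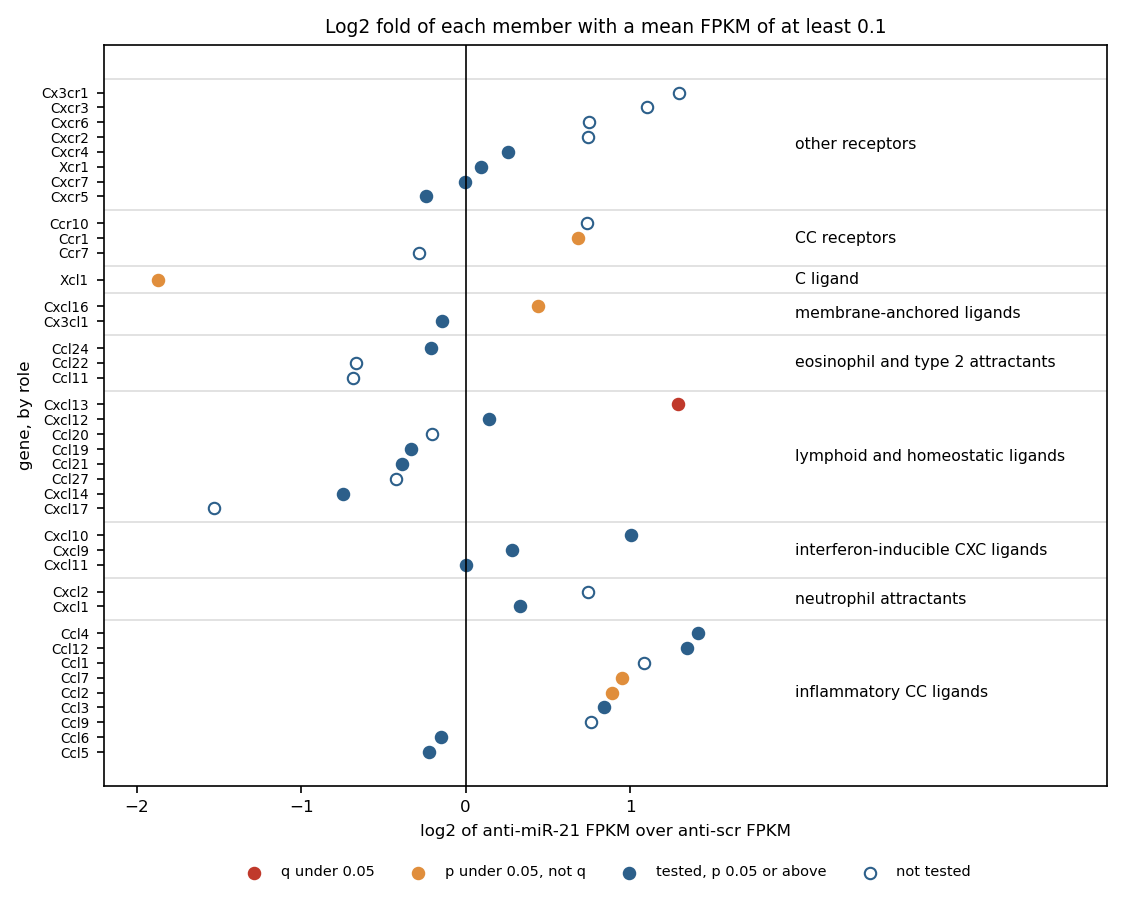
Log2 fold (anti-miR-21 over anti-scr FPKM) of 39 members with a mean FPKM of at least 0.1 and a value in both groups, grouped by role. Red marks a deposited q under 0.05, orange an unadjusted p under 0.05, filled blue other tested genes and open circles genes not tested; most inflammatory CC ligands lie right of 0 and most lymphoid and homeostatic ligands left of it.

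The ligands that draw neutrophils were scarce. Cxcl1, a ligand of Cxcr2 and the one tested member of this role, stood at 4.27 and 5.36 FPKM (log2 fold 0.33, q = 0.854 per the authors' deposited table). Cxcl2 (0.557 and 0.934 FPKM) was not tested, Cxcl3 was listed at 0 with anti-scr (0.210 FPKM with anti-miR-21), and Cxcl5 was listed at 0 in both groups. Their receptor gene Cxcr2 stood at 0.360 and 0.604 FPKM, and Cxcr1 was listed at 0 with anti-scr (0.0613 FPKM with anti-miR-21). Of 7 neutrophil markers, S100a9, a calcium-binding protein of neutrophils and monocytes, rose from 29.2 to 58.1 FPKM (log2 fold 0.99, q = 0.0318 per the authors' deposited table). S100a8, its partner, stood at 20.1 and 36.8 FPKM (0.87, uncalled). The granule protein genes Mpo and Elane were listed at 0 in both groups, and Ngp and Camp were listed at 0 with anti-scr. The summed level of the list was 49.7 and 95.8 FPKM, nearly all of it from S100a8 and S100a9. S100a9 was the 1 called marker of the list, where 0.186% of all tested loci were called higher.

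Interferon-inducible ligands of Cxcr3, which draw activated T cells, were not called. Cxcl9 stood at 15.9 and 19.3 FPKM (log2 fold 0.28, q = 0.884 per the authors' deposited table). Cxcl10 stood at 1.89 and 3.78 FPKM, a log2 fold of 1.00, but with a p of 0.670 in the authors' deposited table. Cxcl10, Cxcl11 and Art3 share 1 listed span of 82.4 kb, and Art3, a gene of the ADP-ribosyltransferase family, stood at 298 and 282 FPKM there. Cxcl11 itself stood at 45.3 and 45.4 FPKM (log2 fold 0.00), and how the authors' model divided reads among the overlapping genes is not given in the sources used here, so the levels of Cxcl10 and Cxcl11 are uncertain. Their receptor gene Cxcr3 stood at 0.185 and 0.398 FPKM and was not tested.

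Among lymphoid and homeostatic ligands, Cxcl13 was called and the rest were not. The gene (rn5 chromosome 14, 15193474 to 15198511) encodes a ligand made by stromal cells of lymphoid follicles. Its log2 fold was 1.29, with p = 0.00035 and q = 0.0451 per the authors' deposited table. Cxcr5, its receptor on B cells and follicular T cells, stood at 2.46 and 2.09 FPKM (log2 fold -0.24, q = 0.930 per the authors' deposited table), but its 46.3 kb span is also that of Bcl9l (1.26 and 0.709 FPKM). The 4 B cell markers measured summed to 0.597 FPKM under anti-scr and 0.734 under anti-miR-21, with 2 higher and 2 lower in value and 0 tested. Cd79b stood at 0.151 and 0.445 FPKM and Cd22 at 0.159 and 0.0875 FPKM. These markers lay under 0.5 FPKM in both groups.

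The other 4 tested ligands of this role were not called. Cxcl12, which holds blood-forming and endothelial progenitor cells in tissue, had the highest level of any member, at 105 and 116 FPKM (log2 fold 0.15, q = 0.892 per the authors' deposited table). Ccl21, a product of lymphatic endothelium that binds Ccr7, stood at 56.6 and 43.3 FPKM (-0.38, p = 0.0777 per the authors' deposited table), and Ccl19, the other Ccr7 ligand, at 2.91 and 2.31 FPKM (-0.33). Cxcl14 stood at 3.16 and 1.89 FPKM (-0.74), in a span of 402 kb that it shares with H2afy and other genes. The scarce ligands Ccl27 (1.01 and 0.751 FPKM), Ccl20 (0.410 and 0.355 FPKM) and Cxcl17 (0.247 and 0.0854 FPKM) were lower in value and not tested, Ccl28 lay under 0.1 FPKM and Ccl25 was listed at 0. Beside Ccl21, the 4 lymphatic endothelial markers summed to 38.7 and 46.0 FPKM, with 1 higher and 3 lower in value. The 1 higher, the hyaluronan receptor gene Lyve1 (20.8 and 29.1 FPKM), had an unadjusted p under 0.05 in the authors' deposited table. Among all tested loci, 3.18% were higher at that threshold. The second most abundant marker was Pdpn (8.37 and 8.17 FPKM). The part of lymphatic cells in the value of Ccl21 was not tested.

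Receptors of Cxcl12 were the most abundant receptors with a row of their own. Cxcr7 (Ackr3 in RefSeq), which takes up Cxcl12 without signalling through G proteins, stood at 46.6 and 46.4 FPKM (log2 fold -0.01, q = 0.996 per the authors' deposited table). Cxcr4, the signalling receptor, stood at 8.87 and 10.6 FPKM (0.26, q = 0.810 per the authors' deposited table). No member of this axis was called, and the 3 values differ by less than a log2 fold of 0.3 each, a size for which no interval can be computed here.

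Ligands anchored in the membrane by a mucin-like stalk were split. Cxcl16, the ligand of Cxcr6 and also a receptor for oxidised lipoprotein, stood at 24.2 and 32.7 FPKM (log2 fold 0.44; p = 0.0471, q = 0.531 per the authors' deposited table). Its listed span is also that of Zmynd15 (0.176 and 0.170 FPKM). The receptor gene of Cxcl16, Cxcr6, was scarce, at 0.419 and 0.705 FPKM, and was not tested. Cx3cl1 (fractalkine) stood at 5.28 and 4.78 FPKM (-0.14, q = 0.933 per the authors' deposited table). Its receptor gene Cx3cr1, used by patrolling monocytes and resident macrophages, stood at 0.351 and 0.864 FPKM, a log2 fold of 1.30, and was not tested.

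Xcl1 (lymphotactin), made by activated T cells and natural killer cells, was the 1 member lower at an unadjusted p under 0.05. It stood at 3.75 FPKM under anti-scr and 1.02 under anti-miR-21, a log2 fold of -1.87, the lowest of any member with a fold (rn5 chromosome 13, 88078763 to 88083202; p = 0.0303, q = 0.454 per the authors' deposited table). Its receptor gene Xcr1, found on cross-presenting dendritic cells, shares 1 row with Fyco1, a gene of autophagosome transport, and that row (61.3 and 65.3 FPKM) cannot be assigned to either. Of 10 T and natural killer cell markers, 6 were higher and 4 lower in value, 0 were called and 0 passed an unadjusted p of 0.05 in the authors' deposited table, and the list summed to 34.5 and 37.8 FPKM. Its most abundant members were Cd4 (18.0 and 22.1 FPKM) and Klrd1 (4.03 and 4.38 FPKM), both higher in value, and none stood at 0. Cd4 made up most of the sum in both groups, so the sum mainly follows Cd4 and not the list as a whole. The 4 lower in value were Cd3d (1.24 and 1.20 FPKM), Nkg7 (3.18 and 2.09 FPKM), Gzmb (1.89 and 1.34 FPKM) and Prf1 (0.890 and 0.285 FPKM). Of these, Cd3d and Prf1 were not tested. Dendritic cell markers, 4 measured, summed to 5.71 and 5.55 FPKM, of which Clec9a (2.73 and 2.55 FPKM) and Zbtb46 (2.53 and 2.48 FPKM) were the most abundant and 0 passed an unadjusted p of 0.05 in the authors' deposited table.

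Attractants of eosinophils and of type 2 T cells were not higher in any member with a fold. Ccl24, a ligand of Ccr3, stood at 4.09 and 3.54 FPKM (log2 fold -0.21, q = 0.917 per the authors' deposited table). Ccl11 (0.321 and 0.200 FPKM) and Ccl22 (0.233 and 0.147 FPKM) were lower in value and not tested. Ccl17 stood at 0.397 FPKM under anti-scr and was listed at 0 with anti-miR-21, and Ccl26 was listed at 0 with anti-scr. Mast cell markers summed to 13.1 and 19.8 FPKM over 5 genes, with 3 higher and 2 lower in value. Of these 5, 2 were higher at an unadjusted p under 0.05 in the authors' deposited table, against 3.18% of all tested loci. They were the chymase gene Cma1 (2.11 and 5.13 FPKM) and the carboxypeptidase gene Cpa3 (3.46 and 7.29 FPKM), and neither was called. Next in level was the tryptase gene Tpsb2 (3.42 and 3.05 FPKM).

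**Figure D3:**
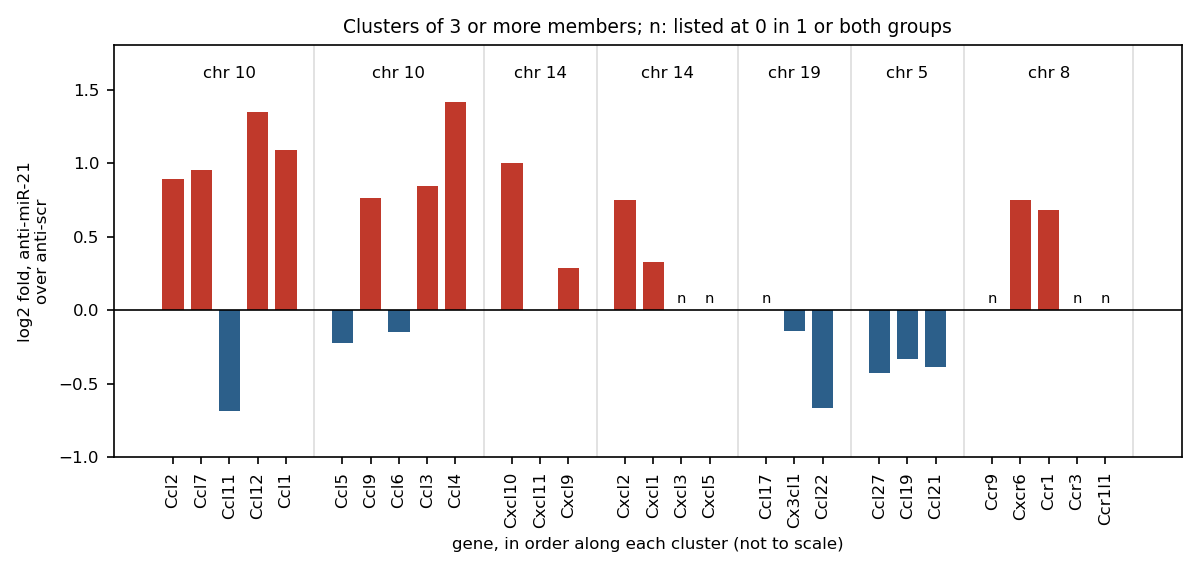
Log2 fold (anti-miR-21 over anti-scr FPKM) of members in the 7 clusters that hold 3 or more of them, in gene order along rn5 and not to scale; n marks genes listed at 0 in 1 or both groups, and the bar of Cxcl11 is at 0.00. Bars point up for 4 of 5 genes around Ccl2, and down for each gene with a fold beside Ccl21 and beside Cx3cl1.

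Many members lie in clusters along the genome, where neighbouring genes of similar sequence can share reads. Around Ccl2 on chromosome 10 (69047090 to 69172142), Ccl2, Ccl7, Ccl12 and Ccl1 were higher in value, with log2 folds of 0.89 to 1.35, and Ccl11 was lower (-0.68). A second cluster on the same chromosome (70373352 to 70518318) was mixed, with Ccl9, Ccl3 and Ccl4 higher and Ccl5 and Ccl6 lower. On chromosome 8, the receptor genes Cxcr6 and Ccr1 had log2 folds of 0.75 and 0.68. On chromosome 5 (62673787 to 62723718), Ccl27, Ccl19 and Ccl21 had log2 folds of -0.43, -0.33 and -0.38, and Il11ra1, a receptor gene for interleukin 11 in the same span as Ccl27, had -0.49.

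The number of neighbouring genes moved with the fold. Over 11631 named loci with a position and a mean FPKM of at least 0.1, the log2 fold was lower where more named loci lay within 500 kb to each side (rank correlation, Spearman's rho, -0.38; Pearson's r, -0.28; both across genes, which are not independent). The median log2 fold of all named loci was 0.14 where at most 7 such neighbours lay, 0.02 in the middle tertile and -0.18 above 16 neighbours. In the same ranges, the members had medians of 0.42 (12 genes), 0.75 (9 genes) and -0.22 (18 genes). Cxcl13 had 2 neighbours, Ccl2, Ccl7 and Ccl12 had 5 each, and Ccl19 and Ccl21 had 20 each. Cxcl16 was higher in value (log2 fold 0.44) with 43 neighbours, and Xcl1 was lower (-1.87) with 5. The part of gene density in the members' folds was not tested.

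**Figure D4:**
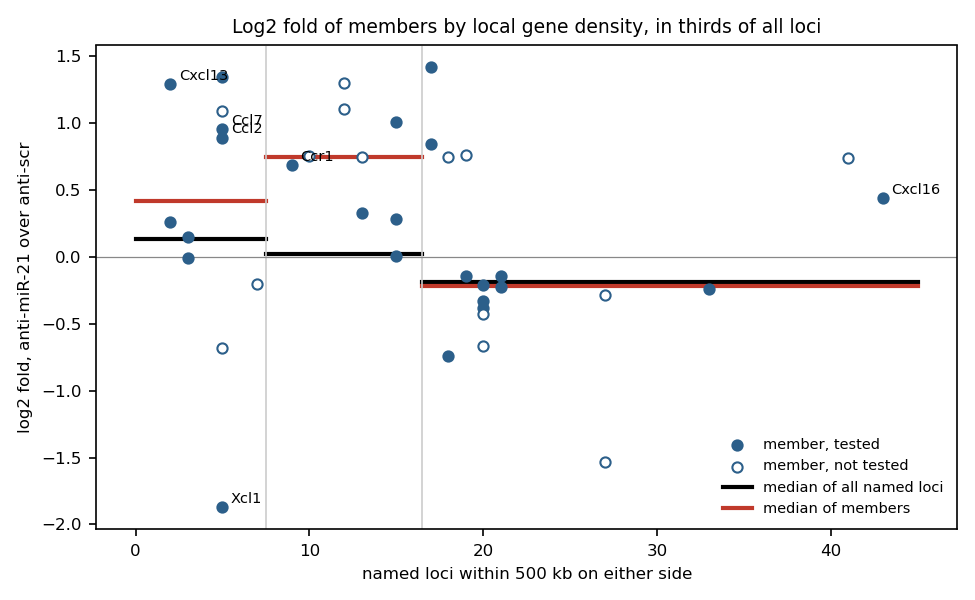
Log2 fold (anti-miR-21 over anti-scr FPKM) of 38 members with a position against the number of named loci within 500 kb, filled where tested. Black lines are medians of all named loci and red lines medians of the members, in tertiles of all loci; both are below 0 above 16 neighbours, where members have a median of -0.22.

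Chemokine genes under other names, and the proteins that act with these ligands and receptors, were measured in 5 lists. The counts past an unadjusted p of 0.05 in the authors' deposited table stand beside 3.18% higher and 6.11% lower among all tested loci. Of 8 genes measured among atypical receptors and chemokines named otherwise, 6 were tested, 0 were called and 1 was higher at an unadjusted p under 0.05 in the authors' deposited table. It was Ccbp2, a decoy receptor that takes up inflammatory CC ligands (3.00 and 4.93 FPKM, log2 fold 0.72, q = 0.230 per the authors' deposited table). Highest in level were Rarres2, the precursor of the attractant chemerin (55.3 and 46.6 FPKM), and Pf4, a platelet CXC chemokine (44.1 and 46.8 FPKM). Platelet markers were near 0, with Gp1ba at 0.245 and 0.286 FPKM and Gp9 listed at 0, and the part of platelets in the level of Pf4 was not tested.

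Of 23 genes of receptor signalling, 19 were tested, 0 were called, and 2 were higher and 2 lower with an unadjusted p under 0.05 in the authors' deposited table, with a median log2 fold of 0.04. The lowest p belonged to the phospholipase gene Plcb3 (1.56 and 0.716 FPKM, -1.12), followed by the G protein subunit gene Gng2 (3.67 and 5.52 FPKM, 0.59) and the G protein inhibitor gene Rgs2 (10.7 and 18.0 FPKM, 0.75). The most abundant were the cell migration GTPase genes Cdc42 (329 and 370 FPKM) and Rac1 (147 and 155 FPKM). Of 22 inducing cytokines and factors, 17 were tested, 0 were called, and 1 was higher and 2 lower with an unadjusted p under 0.05 in the authors' deposited table. Il1b, an inflammatory cytokine that induces Ccl2, stood at 1.97 and 3.72 FPKM (0.92), the lymphotoxin receptor gene Ltbr at 9.75 and 6.24 FPKM (-0.64) and Nfkb2, which acts below that receptor, at 4.27 and 2.74 FPKM (-0.64). At the highest levels were the NF-kappaB inhibitor gene Nfkbia (119 and 102 FPKM) and Tnf, whose highest of 5 loci stood at 82.6 and 91.4 FPKM. This level of Tnf is uncertain because the gene is split and because that locus has the same listed span as Lta and Ltb.

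Of 19 genes of leukocyte adhesion to endothelium and passage through it, 17 were tested and 0 were called. With an unadjusted p under 0.05 in the authors' deposited table, 3 were higher and 2 lower. Among those past it were Cd99, which acts in passage between endothelial cells (10.0 and 4.44 FPKM, log2 fold -1.17), and Vcam1, the endothelial ligand of monocyte integrins (9.30 and 14.2 FPKM, 0.61). Most abundant were Itgb1 (373 and 433 FPKM) and Pecam1 (86.4 and 76.8 FPKM). Of 12 proteases and heparan sulphate genes that trim or present chemokines, 9 were tested, 0 were called and 0 passed an unadjusted p of 0.05 in the authors' deposited table, and the most abundant were Mmp2 (61.1 and 56.5 FPKM) and Adam17 (15.3 and 18.7 FPKM).

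**Figure D5:**
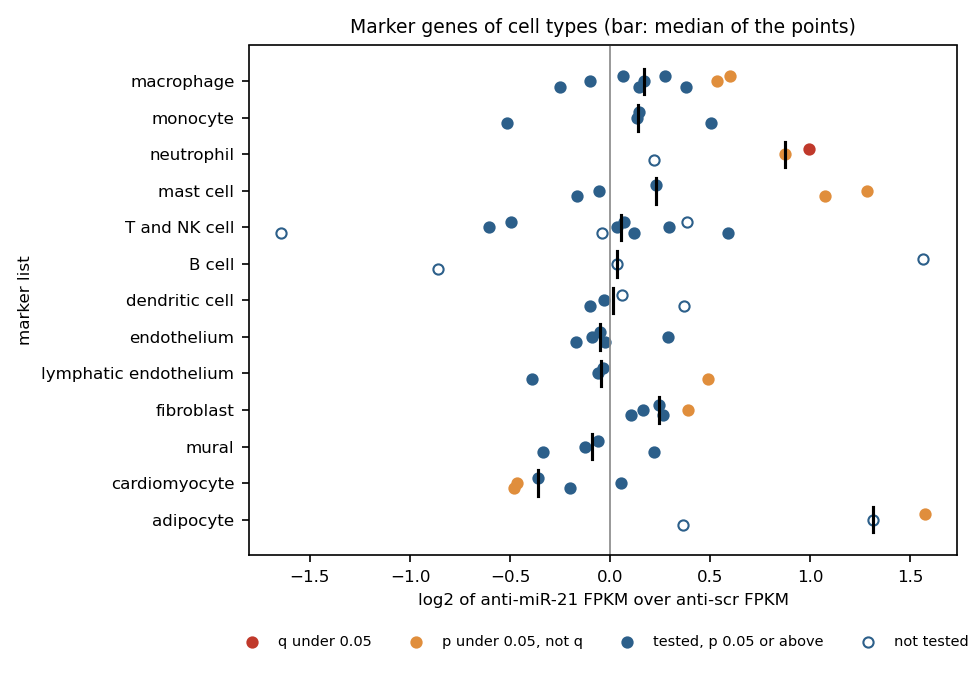
Log2 fold (anti-miR-21 over anti-scr FPKM) of cell type markers with a mean FPKM of at least 0.1, 1 point per gene and a black bar at the median of each list's points; colours are as for the members. S100a9 among neutrophil markers is the 1 called marker, macrophage and fibroblast markers lie mostly right of 0 and cardiomyocyte markers mostly left.

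Markers of the other tissue cells that can make chemokines were measured in 5 lists. Counts past an unadjusted p of 0.05 in the authors' deposited table stand beside 3.18% higher and 6.11% lower among all tested loci. Endothelial markers, 5 measured, summed to 279 and 281 FPKM with a median log2 fold of -0.05, and mural markers, 4 measured, to 525 and 599 FPKM with -0.09; in both lists 0 passed an unadjusted p of 0.05 in the authors' deposited table. The most abundant were Pecam1, Tek (67.8 and 82.8 FPKM), Rgs5 (474 and 551 FPKM) and Pdgfrb (36.2 and 34.7 FPKM). All 5 fibroblast markers were higher in value (median 0.24, summed 1363 and 1663 FPKM), with Lum (266 and 348 FPKM) past an unadjusted p of 0.05 in the authors' deposited table and Dcn (1023 and 1230 FPKM) most abundant. Cardiomyocyte markers, 5 measured, had a median of -0.36, with 4 lower and 1, Ryr2 (354 and 367 FPKM), higher in value. Of these, Tnni3 (9645 and 6995 FPKM) and Actn2 (524 and 375 FPKM) were lower at an unadjusted p under 0.05 in the authors' deposited table. Adipocyte markers were scarce, summing to 1.18 and 3.08 FPKM over 3 genes, with Adipoq (0.772 and 2.29 FPKM) higher at an unadjusted p under 0.05 in the authors' deposited table and Cidec (0.214 and 0.531 FPKM) next. None of these 5 lists had a called marker in the authors' deposited table, and their part in the members' values was not tested.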

How the data were processed

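RNA of left ventricle was measured in 4 libraries, 2 per group, each a pool of rats. Named tools are Cuffdiff, Cufflinks (2.0.10), TopHat2 (2.0.10) and cutadapt, with build rn5, per the submitters' processing notes; annotation and options are not given in the sources used here. The authors deposited FPKM as 1 value per locus and group, beside its p-value and q-value. A second deposited table gave the count of reads per library and the percent of reads mapped. In FPKM, a change of a few abundant transcripts shifts all other values.

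In 97 rows with several genes the cells stood shifted; they were realigned, and each of the 92 recomputable folds came within 0.002 of the authors' deposited log2 fold. Log2 folds were taken from the FPKM ratio, with no pseudocount (Python 3.11.15, pandas 2.3.3). Loci with a deposited statistic of 0 and a p of 1 were taken as not tested, leaving 12876. Calls used the authors' deposited q under 0.05, since pooled values allow no fit per library. Benjamini-Hochberg adjustment was tested on simulated data.

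The members and gene lists were chosen with earlier results of these data known. Members with a mean FPKM of at least 0.1 were named with both values; of other lists, called genes or else up to 3 with the lowest p under 0.05, and the 2 most abundant. Alternatives were other thresholds, recomputed q, FPKM minimums, pseudocounts, recentring and left-out rows. Some genes that this rule takes are counted but not reported by name here or drawn.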

Additional observations from a re-analysis of the deposited data

How the results depend on the processing

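The count of members called higher, 1 in the authors' deposited table, was 2 at a q under 0.1 (Ccl2 and Cxcl13), 0 at a q under 0.01 and 6 at an unadjusted p under 0.05; the count called lower, 0, was 1 at an unadjusted p under 0.05. With q recomputed over all tested loci, or over those with a mean FPKM of at least 1, Cxcl13 remained the 1 call, as it did without realigned rows and, in an alternative chosen after seeing the data, without the 10 members that share a span or row. The median log2 fold of the members ranged from 0.20 to 0.28 over the alternatives, and that of Cxcl13 from 1.08 to 1.29. Summing loci changed nothing, since no member had several. No paired analysis was possible because the expression table holds 1 value per group; for the same reason leaving out each replicate was not run. Members under a mean FPKM of 1 were untested at this depth.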

Other observations

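Among other members, the promoter window of Cxcl10 held 3 kappaB matches, at -187 and, on opposite strands, at -128 and -127 from the start. Beside them were the letters TATAAA at -162 and an AP-1 match at -96. Cxcl1 held overlapping kappaB matches at -84 and -83, Cxcl2 at -74 and -73, and Ccl20 a kappaB match at -89. Of 5 members past an unadjusted p of 0.05 in the authors' deposited table that had a window, 2 held a TATA box and 1 held kappaB. These are descriptions of reference sequence.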
